A study of Homo sapiens with 6 samples.

Results

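The genes described here are the noncoding host genes of small nucleolar RNAs (snoRNAs) in A375, a human malignant melanoma cell line. Members were chosen by name, with earlier results of these data known: every gene of the deposited table called SNHG followed by a number, plus GAS5, ZFAS1, EPB41L4A-AS1 and DANCR. The rule found 29 of the table's 58735 genes, with 28 distinct names because SNHG28 is listed at 2 gene IDs. The study compared 3 libraries of A375 cells given PAL (Ringer's lactate that had been exposed to low-temperature plasma) with 3 libraries of control A375 cells. It asked how the transcripts of these cells differ with PAL treatment. The dose and time of treatment, and what the control cells received, are not stated here by any source used. The headers of the PAL columns carry a number that no source used here explains. The labels do not say that the 3 libraries of a group came from separate cultures, so p-values reflect spread among these libraries only, and that spread may be technical.

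A snoRNA host gene is transcribed like any gene of RNA polymerase II, and its introns are where the snoRNAs lie. After splicing, the intron is debranched and trimmed into a snoRNA that joins proteins in a particle (snoRNP) and guides the modification of ribosomal or spliceosomal RNA. Box C/D snoRNAs guide methylation of the ribose, box H/ACA snoRNAs guide the change of uridine to pseudouridine, and the related scaRNAs act in Cajal bodies. The spliced exons of many hosts are exported and carry only short reading frames, so that ribosomes read them briefly and nonsense-mediated decay removes them. Several hosts begin with a 5′ terminal oligopyrimidine (TOP) tract, the C-led run of pyrimidines that also opens ribosomal protein mRNAs and ties their translation to mTORC1. GAS5 was named for its rise in growth-arrested cells, and host genes such as SNHG1 and SNHG12 are often studied as transcripts raised in tumours.

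Libraries held 15064971 to 17711389 reads assigned to genes, recovered from the deposited FPKM values (fragments scaled by gene length and library size). The deposited library sizes were 1.04 to 1.05 times these totals in PAL libraries and 0.980 to 0.984 times in control libraries. Libraries differed from each other beyond counting noise within groups (chi-square per degree of freedom 1.92 to 3.71) and far more between groups (29.8 to 36.4). Of 13 melanocyte lineage markers, 8 passed the filter on low values, and their list summed to 188.9 to 190.2 FPKM in PAL libraries against 170 to 174 FPKM in control libraries. SOX10, a melanocyte lineage factor, made up most of it and was higher in PAL (107.6 FPKM with PAL against 88.09 FPKM in control, log2 difference 0.29, limma adjusted p = 0.000388). It was the lone rise of the list. S100B, a calcium-binding protein (log2 difference -0.29, adjusted p = 0.03004), and ERBB3, a receptor (-0.16, 0.02948), fell, calls lost in 10 of 16 and 12 of 17 alternatives with adjusted p up to 0.1002 and 0.1982, and the median over the 8 genes was -0.08. The pigment enzyme TYR was at 0 in all 6 libraries. The summed keratinocyte markers stood at 30.85 to 33.4 FPKM in PAL libraries against 31.46 to 36.36 FPKM in control libraries, the fibroblast markers at 3.274 to 4.685 FPKM with PAL against 4.324 to 4.807 FPKM in control, and the leukocyte markers at 3.373 to 4.543 FPKM with PAL against 4.083 to 5.154 FPKM in control. The endothelial markers, none of them tested, stood at 0.836 to 0.9215 FPKM with PAL against 0.7351 to 0.9627 FPKM in control, and the sums of these 4 lists overlapped between groups. Of 2 tested keratinocyte markers, KRT14, a keratin, fell to 2.874 FPKM with PAL against 3.796 FPKM in control (log2 difference -0.31, adjusted p = 0.04221), a call lost in 8 of 16 alternatives with adjusted p up to 0.1217. The part of the marker differences in the host gene values was not tested.

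The guide RNAs show what these genes carry. For SNHG1 and SNHG5, which hold box C/D snoRNAs, 1 guide each is printed with the box C letters TGATGA and the box D letters CTGA in capitals. SNORD99 of SNHG12 carries the box D letters but not that spelling of box C. SNORD25 lies at chr11:62855564-62855632, SNORD50B at chr6:85677589-85677658 and SNORD99 at chr1:28578749-28578822, all on the minus strand of hg38.

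SNORD25: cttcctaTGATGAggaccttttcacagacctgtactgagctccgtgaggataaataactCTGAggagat
SNORD50B: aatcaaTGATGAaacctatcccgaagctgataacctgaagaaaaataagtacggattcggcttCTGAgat
SNORD99: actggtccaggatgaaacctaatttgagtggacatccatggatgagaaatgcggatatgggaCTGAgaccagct

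The box H/ACA guides are shown for the host that fell, EPB41L4A-AS1. They are also shown for 3 hosts whose guide row was called higher in PAL while the host gene did not pass the test. Capitals mark the box ACA, the letters ACA followed by exactly 3 bases at the end. SNORA13 (chr5:112161485-112161617), SNORA26 (chr4:52713249-52713370) and SNORA73B (chr1:28508559-28508762) hold it, all on the plus strand of hg38. SNORA60 (chr20:38449370-38449503, plus strand) ends in ACA itself as annotated.

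SNORA13 of EPB41L4A-AS1: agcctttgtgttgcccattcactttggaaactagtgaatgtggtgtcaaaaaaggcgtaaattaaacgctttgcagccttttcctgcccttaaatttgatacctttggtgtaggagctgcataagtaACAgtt
SNORA26 of DANCR: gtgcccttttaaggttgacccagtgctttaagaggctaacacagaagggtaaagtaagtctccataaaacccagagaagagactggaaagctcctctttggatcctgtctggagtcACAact
SNORA73B of SNHG3: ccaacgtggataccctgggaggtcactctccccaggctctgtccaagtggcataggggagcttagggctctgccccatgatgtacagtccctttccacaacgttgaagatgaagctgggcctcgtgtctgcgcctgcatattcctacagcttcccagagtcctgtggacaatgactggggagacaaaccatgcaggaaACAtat
SNORA60 of SNHG11: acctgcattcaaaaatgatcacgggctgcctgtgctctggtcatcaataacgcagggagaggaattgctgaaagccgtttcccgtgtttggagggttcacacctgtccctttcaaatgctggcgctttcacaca

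Among all annotated human genes of these kinds, TGATGA in the first 20 bases with CTGA in the last 20 was found in 187 of 278 SNORD genes (67.27%), and a terminal ACA followed by 3 bases in 112 of 147 SNORA genes (76.19%), searched on the transcribed strand.

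The starts of the 5 host genes that passed the test are shown because TOP tracts are read from the first transcribed base. Each window has 20 bases before the RefSeq start and 30 from it (GRCh38.p14), and capitals mark a pyrimidine run led by C that covers the start. SNHG12 lies at chr1:28581844-28581893, SNHG1 at chr11:62855856-62855905, GAS5 at chr1:173869016-173869065 and SNHG5 at chr6:85678704-85678753 on the minus strand, and EPB41L4A-AS1 at chr5:112160506-112160555 on the plus strand.

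SNHG12: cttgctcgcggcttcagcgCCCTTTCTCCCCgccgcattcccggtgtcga
SNHG1: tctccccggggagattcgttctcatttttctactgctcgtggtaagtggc
GAS5: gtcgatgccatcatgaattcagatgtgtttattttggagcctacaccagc
SNHG5: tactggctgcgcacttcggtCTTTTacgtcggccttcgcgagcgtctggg
EPB41L4A-AS1: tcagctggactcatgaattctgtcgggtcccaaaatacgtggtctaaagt

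The RefSeq starts differ from the 5′ ends in the deposited table by 1259 bases for SNHG12, 163 for GAS5, 29 for SNHG1 and 15 for SNHG5, and not at all for EPB41L4A-AS1. A C at the start followed by at least 4 pyrimidines was found at 5 of the 18 tested members with a RefSeq start (27.78%), namely SNHG12, SNHG19, SNHG4, SNHG5 and ZFAS1. The same letters stood at 1429 of 35116 RefSeq starts of all genes (4.069%) and at 49 of 86 starts of cytosolic ribosomal protein genes (56.98%), on the transcribed strand. Allowing the C to lie up to 10 bases to either side gave 12 of 18 members (66.67%), 33.47% of all starts and 79.07% of ribosomal protein starts. Members with a tract at the start included SNHG12, which rose, and SNHG5, which fell. No tract in a window says only that these letters are not there.

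With PAL, 3 host genes rose, SNHG12, SNHG1 and GAS5, and 2 fell, EPB41L4A-AS1 and SNHG5. All 5 differences were small, with ratios of mean FPKM from 0.7693 for EPB41L4A-AS1 to 1.281 for SNHG12. Of the 29 members, 22 reached 1 FPKM in at least 3 libraries and were tested with limma on log2(FPKM + 1), with Benjamini-Hochberg adjustment over 12258 genes and a threshold of 0.05. The 3 rises are 13.6% of the tested members, beside 11.4% of all tested genes, and the 2 falls are 9.09%, beside 14.5%. These shares lie near the background, so the counts do not set the host genes apart. The median log2 difference was 0.073 over the tested members and 0.0043 over all tested genes, and the median absolute difference was 0.12 over members and 0.112 over all.

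**Figure D1:**
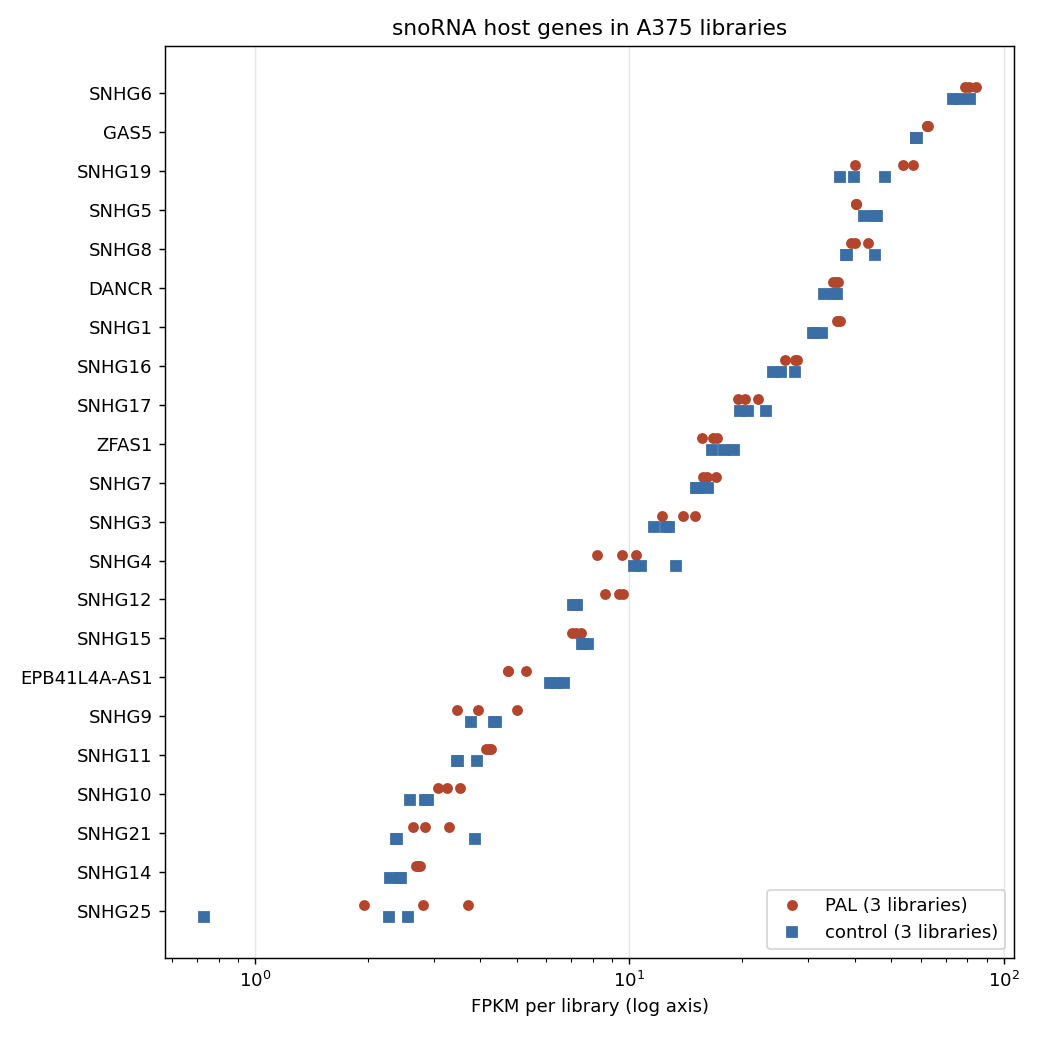
FPKM of each tested host gene on a log axis, 1 circle per PAL library and 1 square per control library, ordered by mean level from SNHG6 at the top to SNHG25 at the bottom. The 3 PAL circles of SNHG12, SNHG1 and GAS5 lie above all their control squares, and those of EPB41L4A-AS1 and SNHG5 lie below them.

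Groups did not overlap, with PAL above, for 6 tested members (27.3%, beside 21.4% of all tested genes), and with PAL below for 3 (13.6%, beside 23.6%). The members above were GAS5, SNHG1, SNHG12, SNHG11, SNHG10 and SNHG14, and those below were SNHG5, EPB41L4A-AS1 and SNHG15. At an unadjusted p below 0.05 there were 8 of the 22 tested members, beside 39.5% of all tested genes. In bulk RNA, fewer cells carrying a transcript and less of it per cell cannot be told apart.

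**Figure D2:**
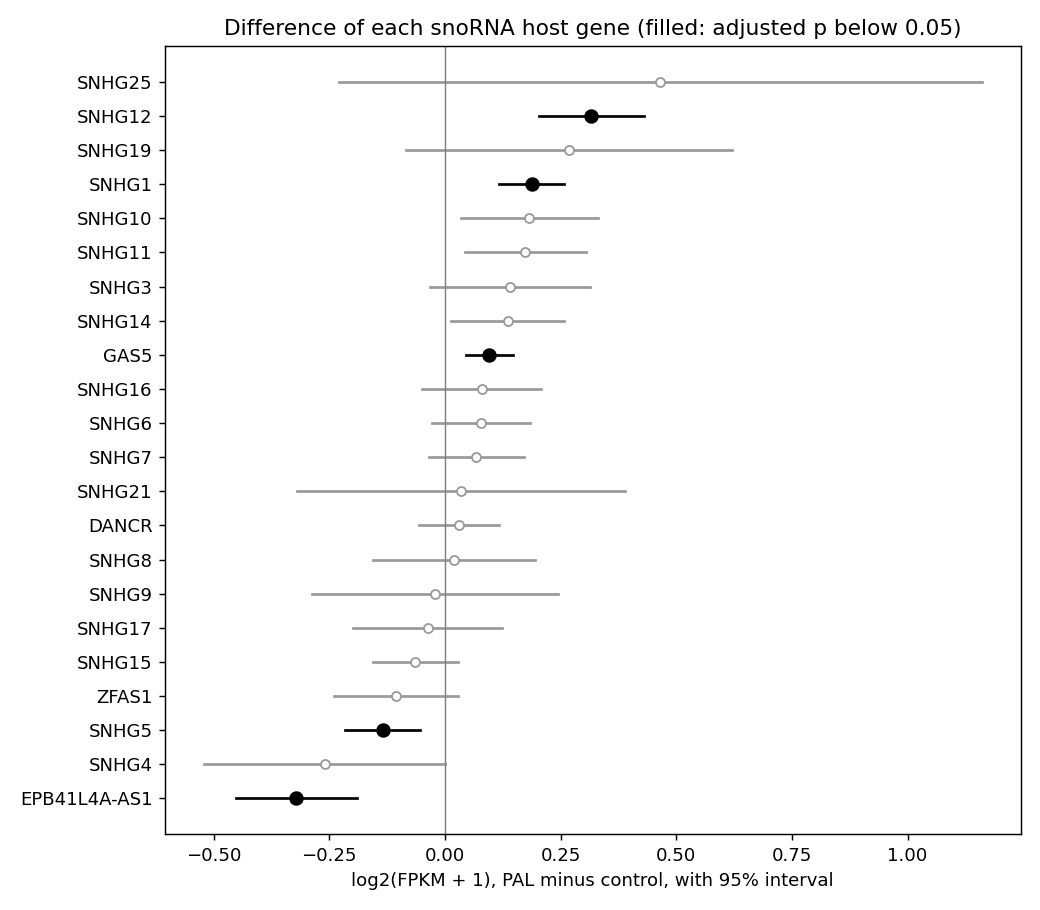
PAL minus control difference in log2(FPKM + 1) of each tested host gene, with its 95% interval from limma. Filled points passed the adjusted threshold of 0.05, and they run from -0.32 for EPB41L4A-AS1 to 0.32 for SNHG12.

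SNHG12 (ENSG00000197989, chr1:28578538-28583132, minus strand) holds 4 RefSeq snoRNAs of both box types. It read 8.589, 9.395 and 9.62 FPKM in PAL libraries against 7.257, 7.216 and 7.082 FPKM in control libraries. Every PAL library lay above every control library, and the PAL libraries were the more spread of the groups. The means were 9.201 ± 0.5419 FPKM with PAL and 7.185 ± 0.09122 FPKM in control (SD, n = 3 each), a log2 difference of 0.32 (SE 0.04787, limma adjusted p = 0.004727). The values rest on 674, 669 and 756 reads in PAL libraries against 490, 456 and 468 reads in control libraries. SNHG12 passed the test in each of 17 alternative processings, with differences from 0.28 to 0.41.

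SNHG1 (ENSG00000255717, chr11:62851988-62855914, minus strand) is the host of 8 box C/D snoRNAs, SNORD25 and SNORD22 among them. It read 36.04, 36.43 and 35.96 FPKM with PAL against 31.37, 30.86 and 32.64 FPKM in control. The 3 PAL values were close together and all above the control values. The means were 36.14 ± 0.2521 FPKM with PAL and 31.62 ± 0.9172 FPKM in control (SD, n = 3 each), a log2 difference of 0.19 (SE 0.02956, limma adjusted p = 0.005382). SNHG1 also passed in each of the 17 alternatives, with differences from 0.17 to 0.27.

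GAS5 (ENSG00000234741, chr1:173863900-173868882, minus strand), with 11 RefSeq snoRNAs, stood next to SNHG6 in mean level. It read 62.21, 62.78 and 62.4 FPKM with PAL against 58.38, 58.54 and 58.19 FPKM in control. Its groups did not overlap, and its difference had the smallest standard error of the 22 tested members. The means were 62.46 ± 0.2896 FPKM with PAL and 58.37 ± 0.175 FPKM in control (SD, n = 3 each), a ratio of 1.07 and a log2 difference of 0.10 (SE 0.02153, limma adjusted p = 0.01893). The GAS5 call was lost in 8 of 17 alternatives, among them leaving out PAL replicate 1 (limma adjusted p = 0.0599), 2 (0.06537) or 3 (0.05047) or control replicate 1 (0.05539) or 2 (0.05232), over a range of 0.001728 to 0.07277, and its difference was 0.18 on plain read totals.

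EPB41L4A-AS1 (ENSG00000224032, chr5:112160526-112164276, plus strand) is the host of 1 box H/ACA snoRNA, SNORA13. It read 5.284, 4.747 and 4.74 FPKM with PAL against 6.121, 6.379 and 6.699 FPKM in control. Every PAL library lay below every control library. The means were 4.924 ± 0.3117 FPKM with PAL and 6.4 ± 0.2894 FPKM in control (SD, n = 3 each), a log2 difference of -0.32 (SE 0.05525, limma adjusted p = 0.007385). It had the lowest log2 difference of the tested members, and it passed in 16 of 17 alternatives, with limma adjusted p = 0.05031 without both libraries numbered 3 and a range of 0.002458 to 0.05031. Of its exonic length, 1659 bases (49.61%) are shared with EPB41L4A on the opposite strand. That gene averaged 0.1947 FPKM with PAL and 0.1589 FPKM in control. No source used here gives the strand setting of the counting, so reads of antisense partners cannot be told apart.

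SNHG5 (ENSG00000203875, chr6:85660950-85678748, minus strand) holds SNORD50A and SNORD50B. It read 40.32, 40.39 and 40.41 FPKM with PAL against 45.82, 45.2 and 42.33 FPKM in control. Its PAL values were nearly equal and lay below all control values, the nearest being control replicate 3. The means were 40.37 ± 0.05024 FPKM with PAL and 44.45 ± 1.861 FPKM in control (SD, n = 3 each), a log2 difference of -0.13 (SE 0.03441, limma adjusted p = 0.02918). In reads it had 2081, 1892 and 2089 with PAL against 2035, 1879 and 1840 in control. These summed to 6062 with PAL and 5754 in control, but the libraries differ in depth, so raw reads do not compare the groups. The fall depends on the library size used: on plain read totals the log2 difference was -0.05 (limma adjusted p = 0.3009), and the call was lost in 11 of 17 alternatives, over a range of 0.008404 to 0.3009. Leaving out PAL replicate 1 (0.08411), 2 (0.08364) or 3 (0.07053) or control replicate 1 (0.08373) or 2 (0.08775) ended it.

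**Figure D3:**
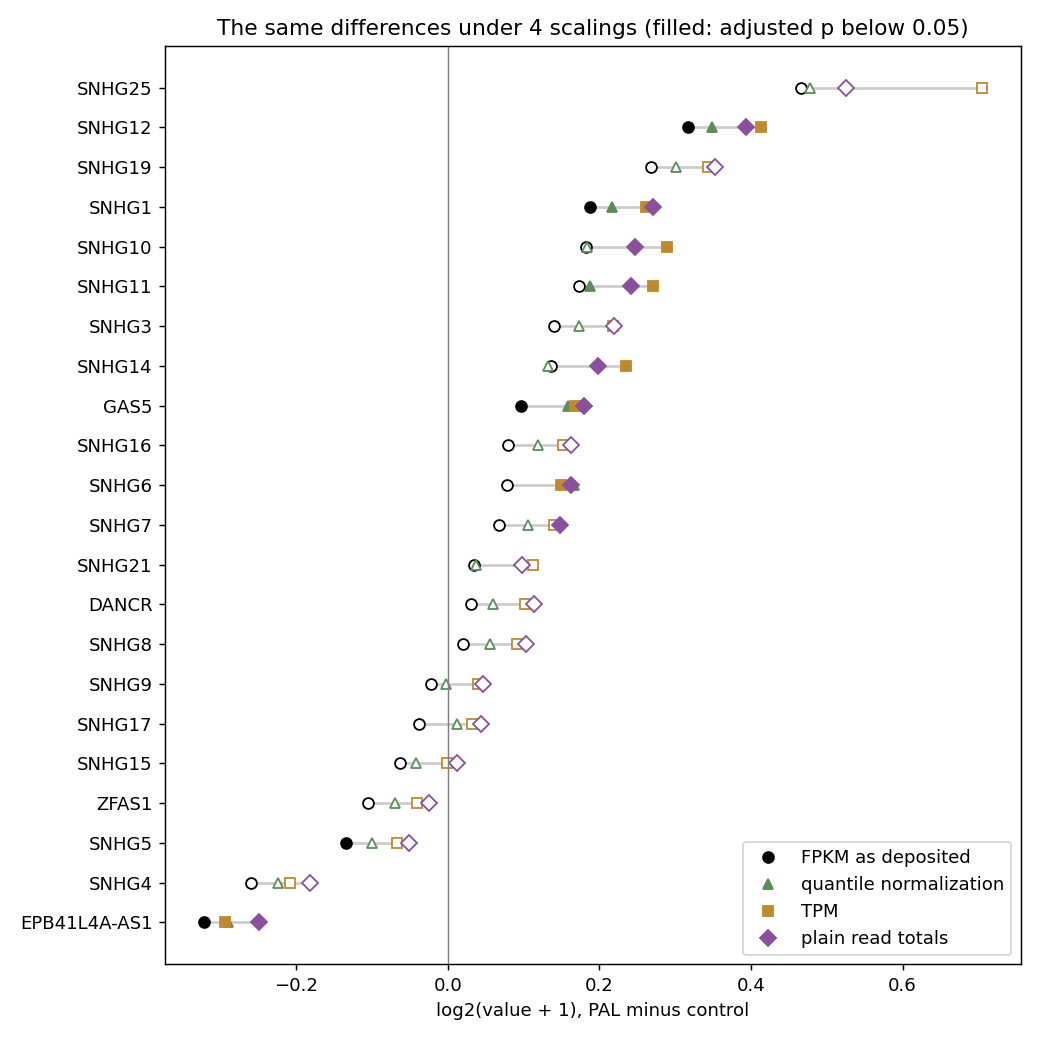
The log2 difference of each tested host gene under 4 scalings: FPKM as deposited (circles), quantile normalization (triangles), TPM (squares) and plain read totals (diamonds), filled where the adjusted p was below 0.05. SNHG12, SNHG1, GAS5 and EPB41L4A-AS1 are filled under every scaling, SNHG5 is filled as deposited alone, and the diamonds lie to the right of the circles for each member.

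Scaling moved the split of calls. As deposited, 44% of all called genes were higher in PAL, against 69.7% on TPM, 59.2% after quantile normalization and 73.3% on plain read totals, where the median over all genes shifted by 0.0681, 0.0277 and 0.071. The count of host genes that rose was 3 as deposited, 7 on TPM, 5 after quantile normalization and 8 on plain read totals, and the count that fell was 2 as deposited and 1 under each of the others. In the same order, 1399, 2697, 2069 and 3097 of all 12258 tested genes rose, and 1780, 1170, 1428 and 1130 fell. The rises went up under each other scaling in both sets. As deposited, 15 of the 22 differences were positive and 7 negative. SNHG9, SNHG17 and SNHG15, none of them called, were negative as deposited and positive on plain read totals. Summed over members, host genes reached 496.4, 506.8 and 476.7 FPKM with PAL against 462.9, 475 and 478.1 FPKM in control, and these overlapped. As a share of assigned reads they took 0.1461%, 0.1449% and 0.1413% with PAL against 0.1287%, 0.1305% and 0.1325% in control, without overlap.

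Hosts of box C/D snoRNAs alone, 7 tested, had 1 rise (SNHG1) and 1 fall (SNHG5), beside 11.4% and 14.5% of all tested genes. Their median log2 difference was 0.08, with a range from -0.13 to 0.27. SNHG6, the member with the highest mean level, had 80.74, 84.26 and 78.66 FPKM with PAL against 75.95, 81.53 and 73.31 FPKM in control, and its groups overlapped (log2 difference 0.08, 95% interval -0.03 to 0.18, limma adjusted p = 0.2404). SNHG19, host of SNORD60, had 53.89, 57.28 and 40 FPKM with PAL against 39.72, 36.52 and 48.14 FPKM in control. Its libraries numbered 3 stood in the reverse order to the others, and its log2 difference of 0.27 did not pass (adjusted p = 0.2259). Without PAL replicate 3 it was 0.42 (adjusted p = 0.0457), without PAL replicate 2 it was 0.17 (adjusted p = 0.4984), and without both libraries numbered 3 it was 0.53 (adjusted p = 0.00584).

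SNHG16, host of the SNORD1 family, had 27.96, 27.72 and 26.1 FPKM with PAL against 24.18, 25.37 and 27.76 FPKM in control, and control replicate 3 lay among the PAL libraries (log2 difference 0.08, limma adjusted p = 0.3167). SNHG14, the very long host of the SNORD116 and SNORD115 clusters on chromosome 15, is known for its imprinting. It had 2.722, 2.75 and 2.691 FPKM with PAL against 2.449, 2.294 and 2.421 FPKM in control, without overlap (log2 difference 0.14, limma adjusted p = 0.098). It passed in 4 of 16 alternatives, including limma-voom on the recovered reads (adjusted p = 0.001683). UBE3A, which lies antisense to it and shares 198 exonic bases, averaged 11.44 FPKM with PAL and 12.62 FPKM in control (log2 difference -0.13, adjusted p = 0.05644).

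ZFAS1, host of the SNORD12 family, had 17.14, 15.65 and 16.75 FPKM with PAL against 17.91, 19.05 and 16.61 FPKM in control. PAL replicate 1 and 3 lay above control replicate 3, so the groups overlapped (log2 difference -0.11, 95% interval -0.24 to 0.03, limma adjusted p = 0.2108). Its antisense neighbour ZNFX1, which encodes a helicase with zinc fingers, shares 249 exonic bases, or 11.1% of the length of ZFAS1. ZNFX1 fell to 5.027 FPKM with PAL, against 7.805 FPKM in control (log2 difference -0.54, limma adjusted p = 0.003388), and the part of shared reads in the ZFAS1 value was not tested.

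Hosts holding both C/D and H/ACA snoRNAs were 3, GAS5, SNHG12 and SNHG25, with a median log2 difference of 0.32. SNHG25 is the shortest tested member, at 278 bases, and rests on 10, 13 and 19 reads with PAL against 10, 3 and 11 reads in control. Its log2 difference of 0.47 had a 95% interval from -0.23 to 1.16 (limma adjusted p = 0.2817), so at this depth a difference of that size was not separable from none. Without control replicate 2, the library with 3 reads, it was 0.14 (adjusted p = 0.6528).

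Hosts of box H/ACA snoRNAs were the largest class, with 10 tested members, of which none rose and 1, EPB41L4A-AS1, fell. With so few members these counts do not set the class apart from all tested genes, of which 11.4% rose and 14.5% fell. Their median log2 difference was -0.0007, and they ran from -0.32 to 0.17. DANCR, host of SNORA26 and known for holding back the differentiation of progenitor cells, had 35.66, 36.1 and 34.92 FPKM with PAL against 35.81, 35.51 and 33.11 FPKM in control. Its groups overlapped, and its log2 difference of 0.03 had a 95% interval from -0.06 to 0.12. SNHG8, host of SNORA24, overlapped too, with 39.11, 43.49 and 40.11 FPKM with PAL against 37.92, 45.2 and 38.12 FPKM in control (log2 difference 0.02, 95% interval -0.15 to 0.20).

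SNHG11, host of SNORA60 and SNORA71E, had 4.213, 4.259 and 4.149 FPKM with PAL against 3.459, 3.48 and 3.924 FPKM in control. The groups did not overlap, and the log2 difference of 0.17 had limma adjusted p = 0.05904. It passed in 5 of 16 alternatives. SNHG3, host of the SNORA73 pair, had 15, 13.89 and 12.22 FPKM with PAL against 11.64, 12.76 and 12.52 FPKM in control. PAL replicate 3 lay among the control libraries, and the log2 difference of 0.14 had adjusted p = 0.201, or 0.22 with 0.04621 without that library. Without PAL replicate 1 it was 0.08 (adjusted p = 0.4725). SNHG3 shares 242 exonic bases with RCC1 on the same strand, which averaged 63.09 FPKM with PAL and 60.86 FPKM in control (log2 difference 0.05, adjusted p = 0.1779).

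SNHG4, host of SNORA74A, had 10.41, 9.558 and 8.199 FPKM with PAL against 10.29, 10.75 and 13.33 FPKM in control. The groups overlapped by 1 library, PAL replicate 1, and the log2 difference of -0.26 had a 95% interval from -0.52 to 0.00 (limma adjusted p = 0.1279). It passed as lower in PAL by limma-voom alone among the alternatives (adjusted p = 0.0277), and without control replicate 3 the difference was -0.15 (adjusted p = 0.2682). SNHG15, host of SNORA9, had 7.036, 7.195 and 7.427 FPKM with PAL against 7.536, 7.459 and 7.771 FPKM in control, with PAL below without overlap, but the log2 difference was -0.06 (adjusted p = 0.2699).

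The other 3 H/ACA hosts overlapped between groups. SNHG17 had 20.36, 19.48 and 22.05 FPKM with PAL against 19.71, 20.71 and 23.24 FPKM in control (log2 difference -0.04). SNHG7 had 17.07, 16.16 and 15.73 FPKM with PAL against 15.28, 15.09 and 16.2 FPKM in control (log2 difference 0.07), and it shares 1094 exonic bases with FAM69B on the opposite strand. SNHG9, a short host of SNORA78, had 3.453, 5.001 and 3.941 FPKM with PAL against 3.784, 4.41 and 4.335 FPKM in control (log2 difference -0.02).

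Hosts of scaRNAs, 2 tested, had no call. SNHG10, host of SCARNA13, had 3.522, 3.08 and 3.265 FPKM with PAL against 2.599, 2.846 and 2.888 FPKM in control, without overlap (log2 difference 0.18, limma adjusted p = 0.07206). It shares 391 exonic bases, or 20.1% of its length, with GLRX5 on the opposite strand, which averaged 18.86 FPKM with PAL and 20.06 FPKM in control. SNHG21, host of SCARNA15, had 2.633, 3.3 and 2.835 FPKM with PAL against 2.4, 2.372 and 3.863 FPKM in control, with control replicate 3 above all others (log2 difference 0.03, adjusted p = 0.8856).

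The 7 members not tested were near or below the filter. SNHG20, host of SCARNA16, came closest, with 1.072, 0.9842 and 0.7848 FPKM with PAL against 1.069, 0.6876 and 0.9545 FPKM in control, and the groups overlapped. SNHG22 had at most 4 reads in a library, SNHG28 at its protein-coding gene ID at most 3, and SNHG26 1 read in 1 PAL library. SNHG18, SNHG27 and the noncoding SNHG28 entry were at 0 in all 6 libraries.

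The FPKM of a host depends on its length in the annotation. For every member this length equals the union of all exons in GENCODE release 29, retained introns included. It covers 95.65% of the gene span for SNHG1, 92.84% for SNHG12, 89.15% for EPB41L4A-AS1, 72.87% for GAS5 and 15.76% for SNHG5. Reads from introns and from exons therefore cannot be told apart at the first 4 of these genes.

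The table also lists the snoRNAs as genes of their own. It holds 137 snoRNA or scaRNA rows inside members on the same strand, of which 30 had any read and none had more than 47 reads in a library. The 44 rows that overlap exons of their host had 0 reads, and the 93 outside exons held all 1132 reads. Mature snoRNAs lack a poly-A tail and the libraries were enriched for poly-A, so these rows are no measure of mature snoRNA levels.

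Of these snoRNA rows 19 were tested, and 3 rose with PAL and none fell by limma, with 3 of the 44 other tested snoRNA rows rising and 2 falling. Over all tested genes 11.4% rose and 14.5% fell, and these sets were not tested against each other. The median log2 difference was 0.25 over the 19 and 0.0468 over the 44. SNORA26 in DANCR had 10, 12 and 13 reads with PAL against 3, 4 and 5 reads in control. SNORA60 in SNHG11 had 6, 5 and 5 reads with PAL against 0, 0 and 2 reads in control, and SNORA73B in SNHG3 had 41, 27 and 41 reads with PAL against 18, 9 and 20 reads in control. All 3 lay above control without overlap, on few reads. SNORA60 had 2.434, 2.235 and 2.025 FPKM with PAL against 0, 0 and 0.9636 FPKM in control. It met the filter of 1 FPKM in 3 libraries through the PAL libraries alone, so its call is no support for a rise.

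For the snoRNA rows that had passed the test, reads were summed over libraries and scaled by the summed deposited library sizes. Rows were picked by that test, so the ratios are no further support for a rise. With intervals that cover counting error only, the ratio of PAL to control was 2.515 for SNORA26 (95% interval 1.275 to 5.32), 6.897 for SNORA60 (1.622 to 61.83) and 1.999 for SNORA73B (1.408 to 2.878). Their log2(FPKM + 1) differences were 1.03 (limma adjusted p = 0.003775), 1.37 (0.01029) and 0.91 (0.0297). The SNORA73B call was lost without PAL replicate 1 (adjusted p = 0.08979) and without PAL replicate 3 (0.08155), and ranged up to 0.1008 with no filter on low values. Their hosts DANCR, SNHG11 and SNHG3 did not pass the test, with log2 differences of 0.03, 0.17 and 0.14, and the difference between guide row and host was not tested.

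Among the hosts that passed, SNORD99 of SNHG12 had 21, 22 and 22 reads with PAL against 9, 14 and 16 reads in control, without overlap (limma adjusted p = 0.08835). SNORA13 of EPB41L4A-AS1 had 3, 5 and 2 reads with PAL against 3, 2 and 4 reads in control. SNORD104 of SNHG25, a host that did not pass, had 46, 47 and 38 reads with PAL against 20, 24 and 33 reads in control (adjusted p = 0.06801). On the FPKM scale its groups overlapped, since PAL replicate 3, at 29.47 FPKM, lay below control replicate 3, at 30.43 FPKM. The table lists no snoRNA row inside GAS5, and those inside SNHG1 and SNHG5 had 0 reads.

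**Figure D4:**
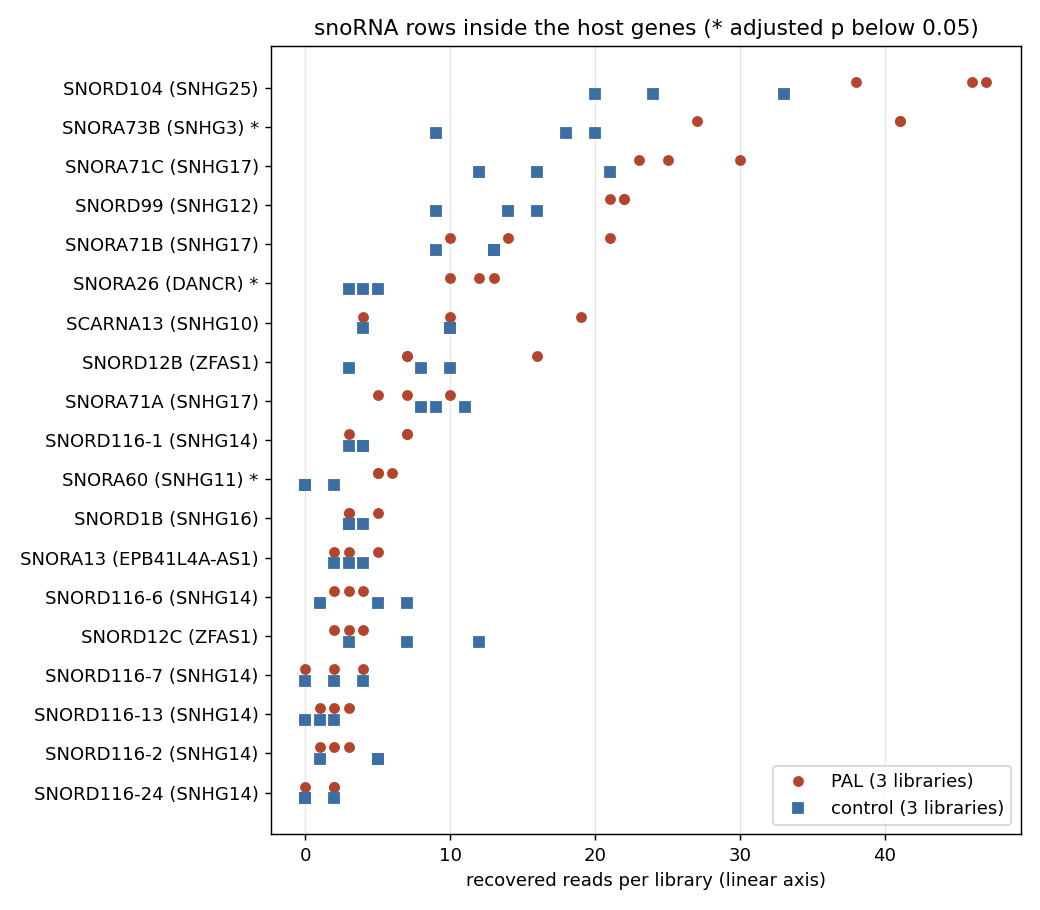
Recovered reads per library of the 19 tested snoRNA and scaRNA rows inside host genes, circles for PAL and squares for control, with the host in brackets and an asterisk where the adjusted p was below 0.05. SNORA26, SNORA60 and SNORA73B carry the asterisk, and no row exceeds 47 reads in a library.

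As deposited, 4 of the 20 genes for proteins that build snoRNPs fell and none rose, beside 14.5% and 11.4% of all tested genes. Of 4 core proteins of the C/D particle, NOP58 fell to 61.43 ± 2.399 FPKM with PAL, against 78.55 ± 2.825 FPKM in control (SD, n = 3 each, log2 difference -0.35, limma adjusted p = 0.001405), and the other 3 did not pass. Of 4 core proteins of the H/ACA particle, DKC1, the pseudouridine synthase, fell to 76.09 FPKM with PAL against 85.18 FPKM in control (log2 difference -0.16, adjusted p = 0.00487), a call lost on plain read totals and after quantile normalization. Of 12 assembly factors, 2 fell and none rose. They were NOLC1, a nucleolar chaperone of snoRNPs (118 FPKM with PAL against 134.9 FPKM in control, log2 difference -0.19, adjusted p = 0.002446), and NAF1, which helps assemble H/ACA particles (3.813 FPKM with PAL against 4.412 FPKM in control, log2 difference -0.17, adjusted p = 0.04143), a call lost in 11 of 16 alternatives, leaving out any 1 of the PAL libraries among them, with adjusted p up to 0.1548. Scaling changed the count of rises: on plain read totals and on TPM 2 C/D core proteins, 3 H/ACA core proteins and 1 assembly factor rose, and after quantile normalization 1, 3 and 1 rose. Without control replicate 3, 1 H/ACA core protein rose.

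For the gene lists, a pair of numbers in brackets gives the log2 difference, PAL minus control, and then the limma adjusted p. Of 23 nonsense-mediated decay factors, 8 fell (34.8%, beside 14.5% of all tested genes) and 1 rose (4.35%, beside 11.4%). EIF4A3, the helicase of the exon junction complex, fell to 34.57 FPKM with PAL against 45.81 FPKM in control (log2 difference -0.40, limma adjusted p = 0.00017). UPF3B fell to 9.472 FPKM with PAL against 12.36 FPKM in control (log2 difference -0.35, adjusted p = 0.002226), and SMG8, a subunit of the SMG1 kinase complex, to 8.35 FPKM with PAL against 10.41 FPKM in control (-0.29, 0.004871). The rise was SMG9, at 9.15 FPKM with PAL against 7.992 FPKM in control (0.18, 0.03365), and it was lost without any 1 of the PAL libraries or control replicate 2 or 3. Without 1 library, 5 to 8 factors fell and 0 or 1 rose, and 5 fell without PAL replicate 1, PAL replicate 2 or control replicate 1. On TPM, after quantile normalization and on plain read totals, 3, 2 and 4 rose and 5, 6 and 5 fell.

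Endogenous targets of nonsense-mediated decay went both ways: of 11 tested, 3 rose and 5 fell. These are 27.3% and 45.5%, beside 11.4% and 14.5% of all tested genes. GADD45B, GADD45A and CDKN1A, which also answer to stress and p53, fell, with log2 differences of -1.85, -1.46 and -0.51 (limma adjusted p = 0.00235, 5.416e-05 and 0.003654). ARFRP1, MAP3K14 and NAT9 rose by 0.33, 0.27 and 0.24 (adjusted p = 0.008405, 0.01227 and 0.02146), the last lost without PAL replicate 1 or 2, with adjusted p up to 0.07655. GAS5 and SNHG1, host genes also known as substrates of this decay, had log2 differences of 0.10 and 0.19. Of 17 genes of the nuclear exosome and snoRNA trimming, 5 fell (29.4%, beside 14.5%) and 2 rose (11.8%, beside 11.4%). DIS3, an exosome nuclease, fell to 12.92 FPKM with PAL against 18.36 FPKM in control (-0.48, adjusted p = 0.0002748), ZCCHC8 to 3.72 FPKM with PAL against 5.493 FPKM in control (-0.46, 0.00369) and TENT4B to 4.644 FPKM with PAL against 6.226 FPKM in control (-0.36, 0.00285), while the exosome subunits EXOSC4 and EXOSC3 rose (0.27 and 0.15, adjusted p = 0.01263 and 0.03251), EXOSC3 losing its call in 9 of 17 alternatives with adjusted p up to 0.09194. Without PAL replicate 2 the fallen genes were 3, and without any 1 library but PAL replicate 1 the risen gene was 1.

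Genes that share the TOP tract showed small differences as deposited. Of 84 tested cytosolic ribosomal protein genes, 10 rose (11.9%, beside 11.4% of all tested genes) and 1 fell (1.19%, beside 14.5%). Their median log2 difference was 0.0348. RPS16 rose to 359 FPKM with PAL against 325.1 FPKM in control (0.14, limma adjusted p = 0.0324) and RPLP2 to 201.9 FPKM with PAL against 183.7 FPKM in control (0.13, 0.03891), while RPL3 fell (-0.08, 0.0256) but turned to 0.0046 after quantile normalization and 0.0027 on plain read totals. RPS16 passed in 10 of 17 alternatives and RPLP2 in 9, and both were lost without PAL replicate 1 or 2 or control replicate 1 or 2, with adjusted p up to 0.1098 and 0.1156. The count rests on the libraries and the scaling. The rises numbered 2 without PAL replicate 1, PAL replicate 2, control replicate 1 or control replicate 2, 6 without control replicate 3, 46 on TPM, 53 after quantile normalization and 54 on plain read totals. Over all 12258 tested genes, 2697, 2069 and 3097 rose under these 3 scalings, beside 1399 as deposited. Of 18 other TOP mRNAs, 1 rose and 2 fell (5.56% and 11.1%, beside 11.4% and 14.5% of all tested genes). EEF1D rose (0.10, adjusted p = 0.03235), and EEF2 (-0.12, 0.009398) and HNRNPA1 (-0.07, 0.04705) fell. On TPM, after quantile normalization and on plain read totals none of the 18 fell and 5 or 6 rose, HNRNPA1 turning to 0.06 after quantile normalization and 0.01 on plain read totals. Without any 1 library none rose, and without any 1 but control replicate 3 a lone gene fell.

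Of 20 TOP and mTORC1 regulators, 3 rose and 2 fell (15% and 10%, beside 11.4% and 14.5% of all tested genes). Over the alternatives 3 to 6 rose and 1 to 4 fell, with 1 falling without PAL replicate 1 and under the 3 other scalings, 3 falling without control replicate 3 and 4 falling by limma-voom. EIF4EBP1, a repressor of cap-dependent translation that mTORC1 switches off, rose to 166.9 FPKM with PAL against 143.9 FPKM in control (log2 difference 0.21, limma adjusted p = 0.002467). MLST8, a subunit of mTORC1, rose by 0.19 (0.01195) and EIF4EBP2, a relative of EIF4EBP1, by 0.19 (0.01027). SESN2, a stress-induced inhibitor of mTORC1, fell to 5.21 FPKM with PAL against 16.44 FPKM in control (-1.48, 5.302e-05), and CNBP, which binds TOP mRNAs, fell too (-0.11, 0.01382), the last lost without PAL replicate 1 and under the 3 other scalings, with adjusted p up to 0.5528.

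**Figure D5:**
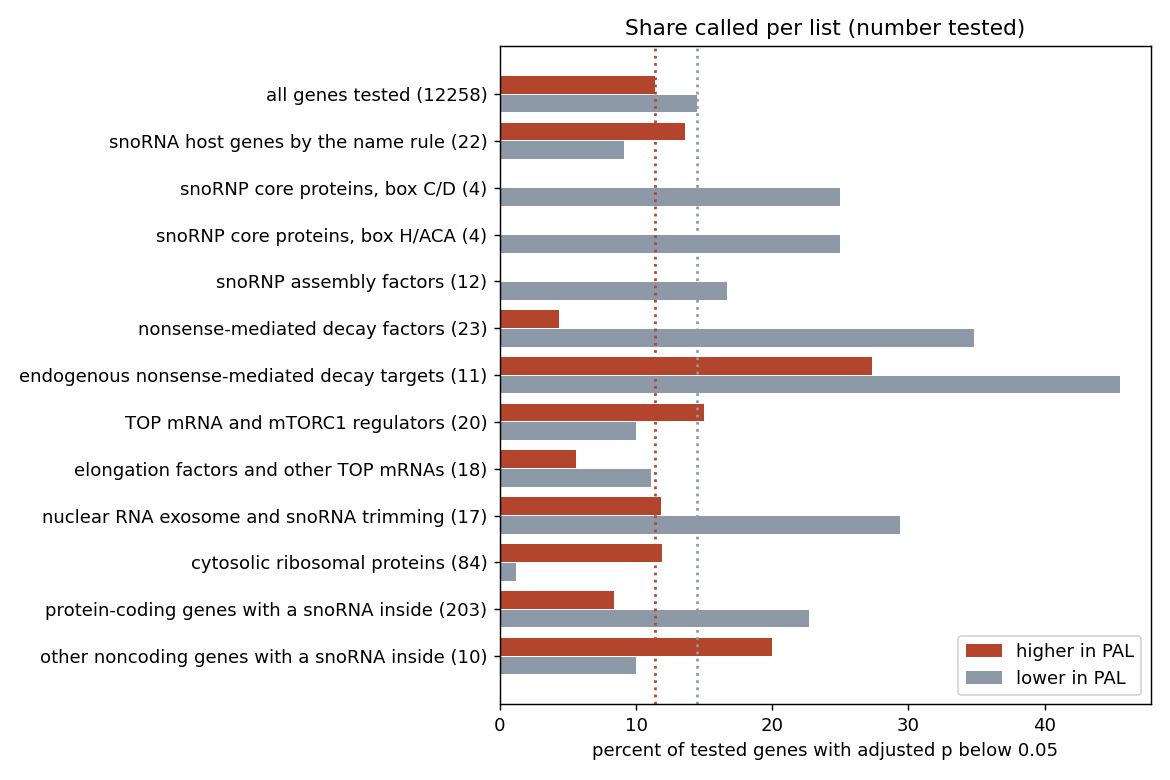
Share of tested genes in each list that passed the threshold as higher (upper bar) or lower (lower bar) in PAL, with the number tested in brackets; dotted lines mark the shares over all tested genes, 11.4% higher and 14.5% lower. The host genes of the name rule stand at 13.6% and 9.09%, and nonsense-mediated decay factors at 4.35% and 34.8%.

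Host genes that encode proteins offer a setting for the noncoding hosts. Of 203 tested protein-coding genes with a snoRNA inside, 17 rose (8.37%, beside 11.4% of all tested genes) and 46 fell (22.7%, beside 14.5%). Their median log2 difference was -0.0183. HSPA8, a heat shock chaperone and host of several C/D snoRNAs, fell to 673.6 FPKM with PAL against 1041 FPKM in control (-0.63, limma adjusted p = 0.00285), as did WEE1, a brake on the cell cycle (-0.83, 0.0001261), and EIF5, a translation initiation factor (-0.56, 7.247e-05). KHDC4 (0.46, 0.000491), CSKMT (0.42, 0.01915) and TRPM2 (0.32, 0.03303) rose, the last lost without PAL replicate 1 or 2 or control replicate 1 or 2 and CSKMT without PAL replicate 1 or control replicate 1, with adjusted p up to 0.1041 and 0.08459. The counts were 40 to 52 higher and 21 to 28 lower under the other 3 scalings, 5 to 10 higher without any 1 library but PAL replicate 3, and 26 to 30 lower without PAL replicate 1 or 2 or control replicate 1 or 2. Over all 12258 tested genes, 1399 rose and 1780 fell as deposited, and 2069 to 3097 rose and 1130 to 1428 fell under those scalings. Without 1 library, 688 to 1202 of them rose and 1167 to 1587 fell.

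Of 10 tested noncoding genes with a snoRNA inside but outside the name rule, 2 rose and 1 fell. These are 20% and 10%, beside 11.4% and 14.5% of all tested genes. LRRC75A-AS1, which RefSeq calls SNHG29, had 103.9, 99.83 and 97.2 FPKM with PAL against 92.44, 93.31 and 92.02 FPKM in control, without overlap (0.11, limma adjusted p = 0.02992), a call lost in 8 of 17 alternatives, leaving out any 1 library but PAL replicate 3 among them, with adjusted p up to 0.0854. AC007952.4 was called higher, at 2.239 FPKM with PAL against 0.6083 FPKM in control (1.06, 0.01444). The call was lost without PAL replicate 2 (adjusted p = 0.05646) and with no filter on low values (0.05737). Of its control libraries, at 0.3967, 0.2119 and 1.216 FPKM, only replicate 3 reached 1 FPKM. The gene met the filter of 1 FPKM in 3 libraries through its PAL libraries, so its call is no support for a rise. CCT6P1 fell to 4.667 FPKM with PAL against 7.066 FPKM in control (-0.50, 0.00807). Among 1167 tested long noncoding genes outside the rule, 13.0% rose and 3.77% fell, beside 13.6% and 9.09% of the host genes, and no test was made between these shares.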

How the data were processed

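RNA-seq libraries were made from A375 cells, 3 with PAL and 3 control, from total RNA with poly-A enrichment, per the labels' protocols, and grouped by title. The deposited table gives FPKM per gene and library, per the file headers; the build hg38 is named in the submitters' processing notes. No source used here gives the aligner, counter or strand setting. FPKM times gene length gave whole reads, within 0.01 of a read, for 100% of values, and a library size that differs from the total of assigned reads. All 58735 genes have their GENCODE release 29 positions.

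Genes with at least 1 FPKM in at least 3 libraries (12258) were fitted with limma 3.58.1 in R 4.3.3 as log2(FPKM + 1), PAL minus control, with a variance trend, two-sided, 4 residual degrees of freedom, Benjamini-Hochberg adjustment over all tested genes and a threshold of 0.05. The scale understates differences of low genes. Reads are not independent molecules, so intervals cover counting error only. The fit was tested on simulated data.

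The members and gene lists were chosen with earlier results of these data known. All members are accounted for; of each list the text names up to 3 rises and 3 falls by size among genes that passed, plus genes that overlap members; 1 item is not reported here. SnoRNA sequences are GENCODE 29 transcripts, and starts are RefSeq (GRCh38.p14); SNHG6, SNHG9, SNHG15 and SNHG25 had no RefSeq start. Alternatives were pseudocounts of 0.1 and 0.5, no filter, a mean of at least 5 FPKM, TPM, quantile normalization, plain read totals, limma-voom on recovered reads, no variance trend, a replicate block, each library left out, and both libraries numbered 3 left out. The same alternatives were extended to hosted snoRNAs, overlapping genes and lists after seeing the data.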

Additional observations from a re-analysis of the deposited data

How the results depend on the processing

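SNHG12 and SNHG1 kept their direction and their call in each of 17 alternatives, and EPB41L4A-AS1 in 16, while GAS5 kept its direction in 17 and its call in 9, and SNHG5 its direction in 17 and its call in 6; the cause was not tested. Host genes that rose numbered 7 on TPM, 5 after quantile normalization and 8 on plain read totals, beside 3. Host genes that fell numbered 1 with no filter on low values, on TPM, after quantile normalization, on plain read totals, without a variance trend, with a replicate block and without both libraries numbered 3, beside 2. Genes higher in PAL over the whole table numbered 765 with no filter, 2697 on TPM, 3097 on plain read totals and 838 with a replicate block, beside 1399. Genes lower in PAL numbered 1170 on TPM and 1130 on plain read totals, beside 1780. Without 1 library, 2 to 4 host genes rose and 1 to 2 fell, and over all genes 688 to 1202 rose and 1167 to 1587 fell. HNRNPA1 turned to 0.05749 after quantile normalization and to 0.01064 on plain read totals, and RPL3 to 0.004575 and 0.002696.

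Libraries with the same number showed no common deviation over all tested genes (correlations of -0.024, 0.027 and -0.045 over 12258 genes). Such values cannot exclude a batch shared by libraries of the same number that moves some genes. With the number as a block, 2 host genes rose and 1 fell, over all genes 838 rose and 1293 fell, and GAS5 (adjusted p = 0.06745) and SNHG5 (0.06194) were not called. Depth limited SNHG25 and the snoRNA rows, with at most 47 reads in a library.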
